A study of Mus musculus with 8 samples.

Results

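Eicosanoids are lipid mediators made from arachidonic acid, and the mRNAs of 10 genes that make or sense them were followed in mouse bone marrow-derived macrophages. The genes were taken by symbol from the deposited table: Ptgs1, Ptgs2, Ptges, Hpgds and Tbxas1 of the prostanoid branch, Alox5, Alox5ap, Lta4h and Ltc4s of the leukotriene branch, and the receptor gene Ptger4. All 10 were found among 24421 genes, and each passed a filter of 1 CPM (a gene's reads scaled to a common library total) or more in 2 or more libraries, which kept 12194 genes. Both genotypes below were compared by poly-A RNA sequencing. The knockout (Rbpj f/f;LysMCre) lost Rbpj through Cre expressed from the LysM locus, which is active in the myeloid lineage, and RBP-J, its product, is the DNA-binding partner of Notch receptors. The wild-type controls are given only as WT, and no label says whether they carried the Cre or the floxed allele. The 4 groups were the knockout after 2 days with TNF (40 ng/ml), the knockout at day 0 without TNF, wild type after 2 days with TNF and wild type at day 0, with 2 libraries each. The series states 2 independent experiments, but no label ties a library to one of them. Mouse ages and the animals behind each library are not stated. The p-values therefore reflect only how far these libraries lie apart, which may be technical. No group was cultured for 2 days without TNF, so TNF and time in culture cannot be told apart.

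In macrophages, cyclooxygenases turn arachidonic acid into prostaglandin H2, and terminal synthases then make prostaglandin E2 (Ptges), prostaglandin D2 (Hpgds) or thromboxane A2 (Tbxas1). In the other branch 5-lipoxygenase (Alox5), helped by the membrane protein FLAP (Alox5ap), makes leukotriene A4, which Lta4h converts to leukotriene B4 and Ltc4s joins to glutathione. Prostaglandin E2 acts on macrophages through the EP2 and EP4 receptors. Inflammatory stimuli are known to induce Ptgs2 and Ptges, whereas Ptgs1 is often described as constitutive.

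The libraries held 9855859 to 35653203 reads counted in genes. Rbpj stood at 30.0 and 21.4 CPM in the knockout with TNF and 38.9 and 31.8 CPM in the knockout at day 0, against 226 and 178 CPM in wild type with TNF and 215 and 216 CPM in wild type at day 0, so each knockout library was below each wild-type library. The knockout minus wild type log2 difference of Rbpj was -2.96 ± 0.27 with TNF (limma adjusted p = 0.0735 unblocked and 0.00339 blocked) and -2.60 ± 0.27 at day 0 (0.238 unblocked and 0.0264 blocked), on the scale and by the fits given below. All 12 macrophage markers examined were detected in the tested set, with summed levels of 6417 to 11197 CPM in the knockout and 7187 to 9146 CPM in wild type. Osteoclast markers summed to 20057 and 47880.1 CPM in the knockout with TNF and 271 and 637 CPM in the knockout at day 0, and to 7413 and 5929.9 CPM in wild type with TNF and 237 and 449.9 CPM in wild type at day 0. The knockout TNF libraries were thus above all others in this list, and replicate 2 above replicate 1. Libraries with the same replicate number deviated from their group means together, and calls are therefore given for 2 fits, one on group alone (unblocked) and one that also has the replicate number as a term (blocked, or with the block). A gene is called where its Benjamini-Hochberg adjusted p in limma, over all 12194 genes, was under 0.05. A log2 difference is on the log2(CPM + 0.5) scale, and ± after it is the moderated standard error (SE) of the fit without the block.

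**Figure D1:**
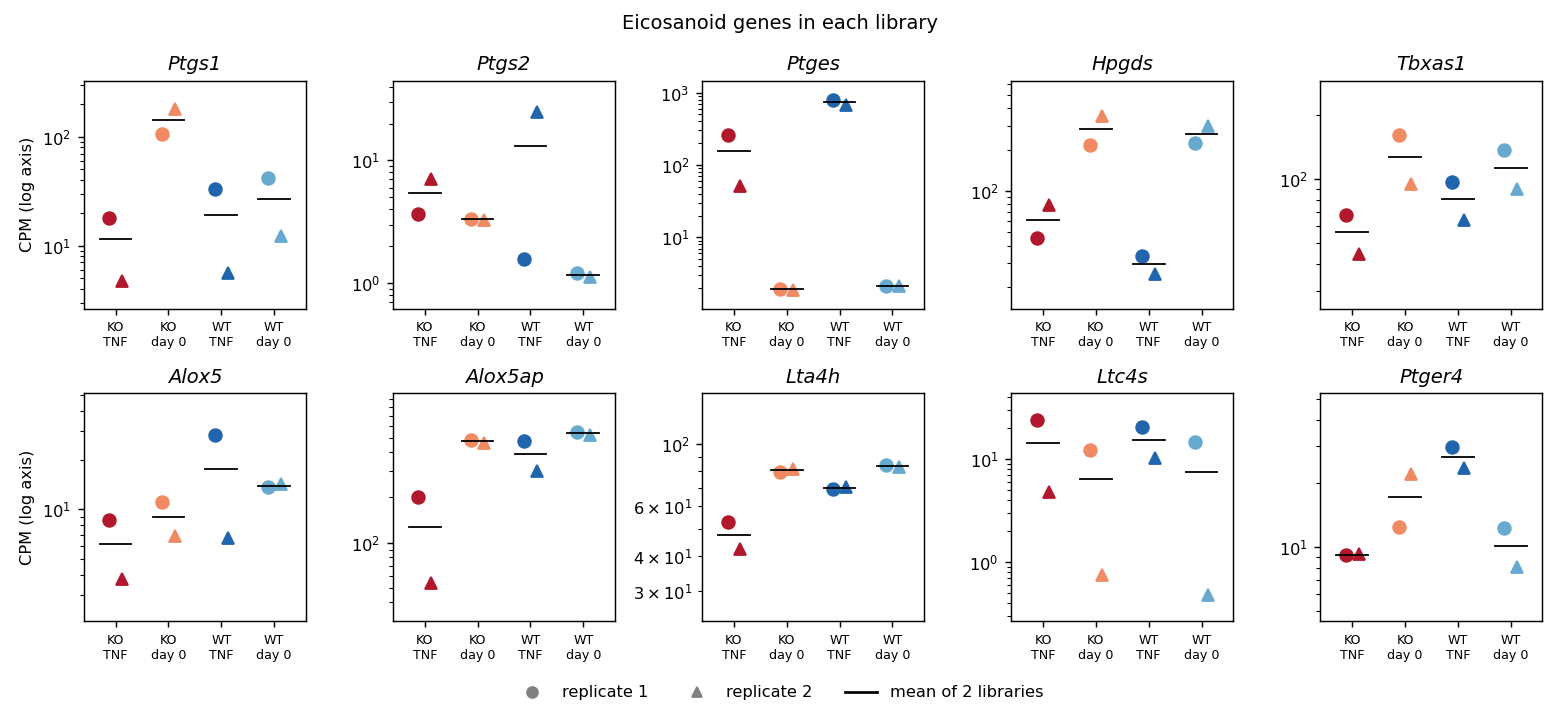
CPM of the 10 genes in each of the 8 libraries on log axes, by group (KO, Rbpj knockout; WT, wild type), with circles for replicate 1, triangles for replicate 2 and a line at the mean of the 2 libraries. Ptges is above 50 CPM in the 4 TNF libraries and near 2 CPM in the day 0 libraries, Hpgds has the opposite pattern, and Ltc4s is higher in replicate 1 than in replicate 2 of every group.

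With TNF the prostaglandin E synthase gene Ptges rose and the prostaglandin D synthase gene Hpgds fell in both genotypes, and these were the only members called without the block in either genotype. That is 2 of 10 members in the knockout, where 5.1% of all genes were called. In wild type it is 2 of 10, where 1.18% were called. The members were chosen with earlier results of these data known, so such shares, here and below, do not test the set. With the block, 6 of 10 were called in the knockout, 1 higher and 5 lower, where 25.9% of all genes were called, and 2 of 10 in wild type, where 10.3% were called. The 1 higher was Ptges, where 12.2% of all genes were called higher, and the 5 lower were Ptgs1, Hpgds, Tbxas1, Alox5ap and Lta4h, where 13.7% were called lower. TNF and day 0 libraries did not overlap in 8 of 10 members in the knockout, against 45.7% of all genes, and in 6 of 10 in wild type, against 37.4% of all genes. The median log2 difference of the 10 members was -0.79 in the knockout, against -0.10 over all genes, and -0.13 in wild type, against -0.12 over all genes.

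Ptges (ENSMUSG00000050737.13, GRCm38 chromosome 2, 30889471 to 30929863, minus strand, protein coding) encodes the inducible microsomal prostaglandin E synthase. It had 256 and 51.1 CPM in the knockout with TNF, against 1.97 and 1.87 CPM in the knockout at day 0. In wild type it had 801 and 682 CPM with TNF, against 2.11 and 2.11 CPM at day 0. The TNF libraries lay far above the day 0 libraries in both genotypes, and both wild-type TNF libraries lay above both knockout TNF libraries. On the log2 scale TNF minus day 0 was 5.57 ± 0.68 in the knockout (limma adjusted p = 0.0110 unblocked and 0.00176 blocked) and 8.14 ± 0.68 in wild type (limma adjusted p = 0.0138 unblocked and 0.00147 blocked). Without the block, the knockout call was lost when knockout day 0 replicate 1 or 2 was left out (limma adjusted p = 0.0540 and 0.0761), and the wild-type call when wild-type TNF replicate 1 or 2 or wild-type day 0 replicate 1 or 2 was left out (0.0527, 0.0994, 0.134 and 0.151). Both blocked calls held without each of the 8 libraries in turn.

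Hpgds (ENSMUSG00000029919.5, chromosome 6, 65117293 to 65144908, minus strand) encodes the hematopoietic prostaglandin D synthase. It stood at 45.4 and 78.5 CPM in the knockout with TNF, against 216 and 352 CPM in the knockout at day 0. Wild-type libraries had 33.7 and 25.0 CPM with TNF, against 225 and 299 CPM at day 0. Every TNF library was below every day 0 library, and the knockout TNF libraries were above the wild-type TNF libraries. The log2 difference was -2.20 ± 0.38 in the knockout (limma adjusted p = 0.0294 unblocked and 0.00419 blocked) and -3.14 ± 0.38 in wild type (limma adjusted p = 0.0248 unblocked and 0.00288 blocked). Without the block, leaving out any of the 4 libraries of the contrast ended the call in wild type (limma adjusted p 0.0638 to 0.217). In the knockout the call was lost without any of its own 4 libraries or wild-type day 0 replicate 1 or 2 (0.0641 to 0.169). Both blocked calls held without each library in turn. Mast cells, basophils and eosinophils are among the other hematopoietic cells known to express Hpgds. Markers of these cells summed to 6.19 and 14.6 CPM in the knockout with TNF and 5.43 and 33.5 CPM in the knockout at day 0. In wild type the sums were 1.54 and 7.97 CPM with TNF and 3.57 and 10.8 CPM at day 0. Of their 14 markers, 6 passed the filter and the mast cell chymase Cma1 had no read in any library. Their part in the Hpgds difference was not tested, and fewer cells of a type and less RNA per cell cannot be told apart in these bulk samples.

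Levels of the 2 synthases can be compared per exon length. Per kilobase of exon, Ptges exceeded Hpgds by a ratio of 9.23 and 1.06 in the knockout TNF libraries (replicates 1 and 2), against ratios of 0.0149 and 0.00868 in the knockout day 0 libraries. In wild type the ratios were 38.9 and 44.6 with TNF, against 0.0153 and 0.0115 at day 0. By this measure the 2 genes exchanged order in every TNF library. In knockout TNF replicate 2 they stood at nearly the same level, 13.0 CPM per kb for Ptges and 12.2 CPM per kb for Hpgds. Not divided by exon length, Ptges was below Hpgds in that library (51.1 and 78.5 CPM), so its order depends on the exon lengths used.

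**Figure D2:**
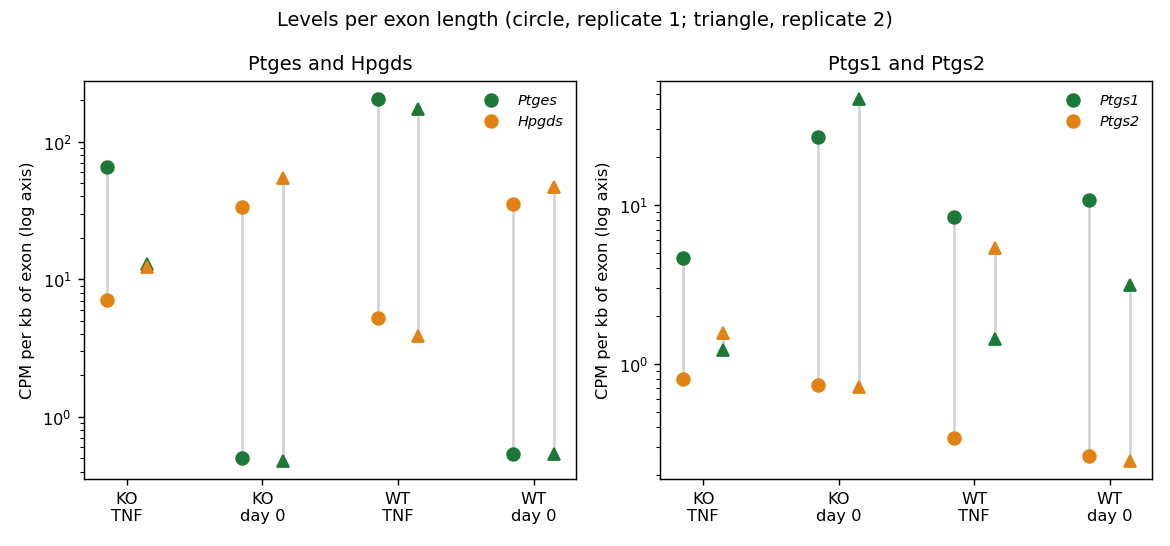
Level per kilobase of exon (CPM per kb, log axis) of Ptges and Hpgds on the left and of Ptgs1 and Ptgs2 on the right, in each library by group, with a grey line joining the 2 genes of a library. Ptges lies above Hpgds in the TNF libraries and below it at day 0, and Ptgs1 lies above Ptgs2 except in replicate 2 of the TNF groups.

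Of the cyclooxygenase genes, limma on all 8 libraries called Ptgs1 in the knockout with the block and Ptgs2 in no comparison. Ptgs1 (ENSMUSG00000047250.13, chromosome 2, 36230426 to 36252272, plus strand) encodes cyclooxygenase-1. It had 18.1 and 4.75 CPM in the knockout with TNF, against 105 and 180.3 CPM in the knockout at day 0. Wild-type libraries had 32.8 and 5.60 CPM with TNF, against 41.7 and 12.2 CPM at day 0. Both knockout day 0 libraries were above all other libraries, whereas the wild-type groups overlapped. The log2 difference with TNF was -3.81 ± 1.02 in the knockout, which passed only with the block (limma adjusted p = 0.0912 unblocked and 0.0118 blocked), and -0.70 ± 1.02 in wild type (limma adjusted p = 0.951 unblocked and 0.565 blocked). The blocked call in the knockout was lost without knockout TNF replicate 2 (log2 difference -3.46, limma adjusted p = 0.0751). At day 0 the knockout minus wild type difference of Ptgs1 was 2.57 ± 1.02 (95% interval 0.13 to 5.01, limma adjusted p = 1.0 unblocked and 0.550 blocked). Markers of platelets and megakaryocytes, cells rich in cyclooxygenase-1, summed to 197 and 49.9 CPM in the knockout with TNF and 422 and 335 CPM in the knockout at day 0, and to 217 and 111 CPM in wild type with TNF and 341 and 405 CPM in wild type at day 0. For TNF against day 0 in the knockout, the unblocked fit called 0 of these 10 markers, against 5.1% of all genes. The blocked fit called 6, all lower, against 13.7% of all genes called lower. The part of this list in the Ptgs1 difference was not tested.

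Ptgs2 (ENSMUSG00000032487.8, chromosome 1, 150100031 to 150108227, plus strand) encodes cyclooxygenase-2, the inducible enzyme. It had 3.65 and 7.12 CPM in the knockout with TNF, against 3.36 and 3.29 CPM in the knockout at day 0. Wild-type libraries had 1.57 and 24.7 CPM with TNF, against 1.20 and 1.11 CPM at day 0. The groups did not overlap in either genotype, but the wild-type TNF mean rested on replicate 2. On the log2 scale TNF minus day 0 was 0.56 ± 1.07 in the knockout (limma adjusted p = 0.870 unblocked and 0.669 blocked) and 2.12 ± 1.07 in wild type (limma adjusted p = 0.537 unblocked and 0.165 blocked), and neither passed in limma. DESeq2, on the recovered reads, called Ptgs2 in wild type at a larger difference (3.77, adjusted p = 0.0148). It was not called by edgeR (3.75 unblocked and 3.11 blocked, edgeR adjusted p = 0.284 and 0.147). With 1 library left out, the blocked limma difference in wild type ran from 0.45 to 3.80, and whether it passed depended on the library. The value of 3.80 came from the fit without wild-type TNF replicate 1. Per kilobase of exon, Ptgs1 stood over Ptgs2 by ratios of 5.83 and 0.786 in the knockout TNF libraries and 36.8 and 64.7 in the knockout day 0 libraries. In wild type the ratios were 24.6 and 0.267 with TNF and 40.8 and 13.0 at day 0. In both genotypes the ratio fell below 1 in TNF replicate 2 only.

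The 250 bases before the RefSeq transcription start (GRCm38.p6) are shown for Ptges and Hpgds, called in both genotypes, and for Ptgs1, the cyclooxygenase gene called in the knockout with the block. The RefSeq starts of Ptges and Hpgds differ from the gene ends given above. The Ptges window therefore lies within the span given for that gene, and the Hpgds window lies partly within its own. Capitals mark matches, on either strand, to letters of known binding motifs.
Ptges, chr2:30903298-30903547, minus strand: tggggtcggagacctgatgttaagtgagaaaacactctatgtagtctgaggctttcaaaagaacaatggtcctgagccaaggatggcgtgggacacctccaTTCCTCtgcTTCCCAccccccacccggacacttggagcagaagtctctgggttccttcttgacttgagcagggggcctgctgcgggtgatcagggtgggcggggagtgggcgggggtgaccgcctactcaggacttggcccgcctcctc
Hpgds, chr6:65144731-65144980, minus strand: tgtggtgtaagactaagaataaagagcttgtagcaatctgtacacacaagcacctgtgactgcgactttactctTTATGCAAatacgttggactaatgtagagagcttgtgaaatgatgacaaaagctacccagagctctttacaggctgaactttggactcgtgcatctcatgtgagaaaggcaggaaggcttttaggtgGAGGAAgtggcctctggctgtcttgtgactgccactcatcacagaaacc
Ptgs1, chr2:36230176-36230425, plus strand: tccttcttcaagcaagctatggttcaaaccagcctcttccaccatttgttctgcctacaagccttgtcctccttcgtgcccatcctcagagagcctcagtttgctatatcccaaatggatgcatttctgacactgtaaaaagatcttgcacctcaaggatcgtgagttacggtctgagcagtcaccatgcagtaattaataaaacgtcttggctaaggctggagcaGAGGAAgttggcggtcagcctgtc
The motifs searched were RBP-J (TGGGAA), AP-1 (TGANTCA), C/EBP (TTGCNNAA), PU.1 (GAGGAA), the core of a cAMP response element (TGACGT) and the NF-kB consensus. In the Ptges window TTCCTC, the reverse complement of the PU.1 letters, lay 149 bases before the start, and TTCCCA, that of the RBP-J letters, 140 bases before it. Hpgds held the reverse complement of C/EBP letters at 176 and PU.1 letters at 49 bases before the start, and Ptgs1 held PU.1 letters at 24. Of the 9 members with a promoter in the table, which holds none for Alox5ap, 7 held the PU.1 letters, 2 the RBP-J letters (Ptges and Ltc4s) and 0 the NF-kB consensus. Over all 32851 promoter windows of this length the shares were 23.25%, 21.6% and 3.90% for these 3 motifs. These matches are descriptions of letters in the windows, not binding sites.

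Tbxas1 (ENSMUSG00000029925.13, chromosome 6, 38875404 to 39084585, plus strand) encodes thromboxane A synthase. Its levels were 68.2 and 44.4 CPM in the knockout with TNF, against 160.1 and 94.8 CPM in the knockout at day 0, and 96.5 and 64.5 CPM in wild type with TNF, against 136 and 89.5 CPM at day 0. Replicate 1 exceeded replicate 2 in each group, and TNF libraries were below day 0 libraries of the same replicate number in both genotypes. The log2 difference was -1.16 ± 0.40 in the knockout, called only with the block (limma adjusted p = 0.177 unblocked and 0.00279 blocked), and this blocked call held without each library in turn. In wild type it was -0.48 ± 0.40 (limma adjusted p = 0.805 unblocked and 0.0740 blocked).

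Of the leukotriene genes, Alox5ap and Lta4h were lower with TNF in the knockout by the fit with the block, whereas limma called Alox5 and Ltc4s in no comparison, unblocked or blocked. Alox5ap (ENSMUSG00000060063.9, chromosome 5, 149264767 to 149288153, plus strand) encodes FLAP, which presents arachidonic acid to 5-lipoxygenase. It had 201 and 54.2 CPM in the knockout with TNF, against 485 and 461 CPM in the knockout at day 0. Wild-type libraries had 476 and 302 CPM with TNF, against 548 and 521 CPM at day 0. The knockout TNF libraries were the lowest of the 8. On the log2 scale TNF minus day 0 was -2.17 ± 0.59 in the knockout (limma adjusted p = 0.0924 unblocked and 0.0149 blocked) and -0.50 ± 0.59 in wild type (limma adjusted p = 0.919 unblocked and 0.504 blocked). The blocked call was lost without knockout day 0 replicate 2 (log2 difference -1.77, limma adjusted p = 0.115).

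Lta4h (ENSMUSG00000015889.8, chromosome 10, 93453411 to 93484875, plus strand) encodes the hydrolase that makes leukotriene B4. It stood at 53.0 and 42.3 CPM in the knockout with TNF, against 79.4 and 81.7 CPM in the knockout at day 0, and at 69.4 and 70.4 CPM in wild type with TNF, against 84.0 and 83.0 CPM at day 0. The TNF groups lay below the day 0 groups, and the knockout TNF libraries lay farther apart (SD 7.51 CPM) than those of the other groups (SD 0.696 to 1.68 CPM). The log2 difference was -0.76 ± 0.22 in the knockout (limma adjusted p = 0.110 unblocked and 0.0164 blocked) and -0.26 ± 0.22 in wild type (limma adjusted p = 0.816 unblocked and 0.336 blocked). The blocked call was lost without knockout TNF replicate 2 (log2 difference -0.59) and without knockout day 0 replicate 1 (-0.83) or 2 (-0.69), with limma adjusted p from 0.0742 to 0.145.

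Alox5 (ENSMUSG00000025701.12, chromosome 6, 116410077 to 116461178, minus strand) encodes 5-lipoxygenase. It had 8.62 and 3.74 CPM in the knockout with TNF, against 11.04 and 6.89 CPM in the knockout at day 0, and 28.5 and 6.70 CPM in wild type with TNF, against 13.7 and 14.2 CPM at day 0. The wild-type TNF libraries lay on both sides of the day 0 libraries. On the log2 scale TNF minus day 0 was -0.57 ± 0.72 in the knockout (limma adjusted p = 0.772) and -0.00 ± 0.72 in wild type (95% interval -1.71 to 1.71). Neutrophil markers, from cells rich in 5-lipoxygenase, summed to 65.6 and 78.0 CPM in the knockout with TNF and 301 and 1115 CPM in the knockout at day 0, and to 126 and 231 CPM in wild type with TNF and 194 and 939 CPM in wild type at day 0. At day 0 this list was higher in replicate 2 of both genotypes, where Alox5 was lower in replicate 2 of the knockout and slightly higher in replicate 2 of wild type. Its part in the Alox5 levels was not tested.

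Ltc4s (ENSMUSG00000020377.15, chromosome 11, 50236461 to 50238616, minus strand) encodes leukotriene C4 synthase. It varied more between replicates than between groups, with 24.1 and 4.75 CPM in the knockout with TNF, 12.2 and 0.755 CPM in the knockout at day 0, 20.6 and 10.3 CPM in wild type with TNF and 14.6 and 0.482 CPM in wild type at day 0. Replicate 1 was the higher of each pair. The log2 difference with TNF was 1.51 ± 1.60 in the knockout (limma adjusted p = 0.712 unblocked and 0.138 blocked) and 1.97 ± 1.60 in wild type (limma adjusted p = 0.794 unblocked and 0.109 blocked). Stromal markers such as collagens split by replicate in the same way, with summed levels of 233 and 10.6 CPM in the knockout with TNF, 206 and 6.31 CPM in the knockout at day 0, 181 and 44.3 CPM in wild type with TNF and 149 and 9.53 CPM in wild type at day 0. Their part in the Ltc4s levels was not tested. The Ltc4s, Alox5ap, Ptgs1, Tbxas1 and Ptger4 genes share exon bases with a gene on the opposite strand, and whether counting used strand is not stated in the labels.

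Ptger4 (ENSMUSG00000039942.15, chromosome 15, 5206661 to 5244187, minus strand) encodes EP4, a receptor for prostaglandin E2 that raises cyclic AMP. It had 9.13 and 9.23 CPM in the knockout with TNF, against 12.4 and 22.1 CPM in the knockout at day 0. Wild-type libraries had 29.6 and 23.7 CPM with TNF, against 12.2 and 8.05 CPM at day 0. TNF libraries were below day 0 libraries in the knockout and above them in wild type. Neither response passed in limma on all 8 libraries. The log2 difference was -0.82 ± 0.39 in the knockout (limma adjusted p = 0.326 unblocked and 0.120 blocked). In wild type it was 1.37 ± 0.39 (limma adjusted p = 0.204 unblocked and 0.0530 blocked). DESeq2 called the wild-type response (1.51, adjusted p = 0.0159). With 1 library left out, the blocked limma difference ran from 0.997 to 1.74 in wild type and from -1.37 to -0.27 in the knockout. Whether a response passed depended on the library left out.

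**Figure D3:**
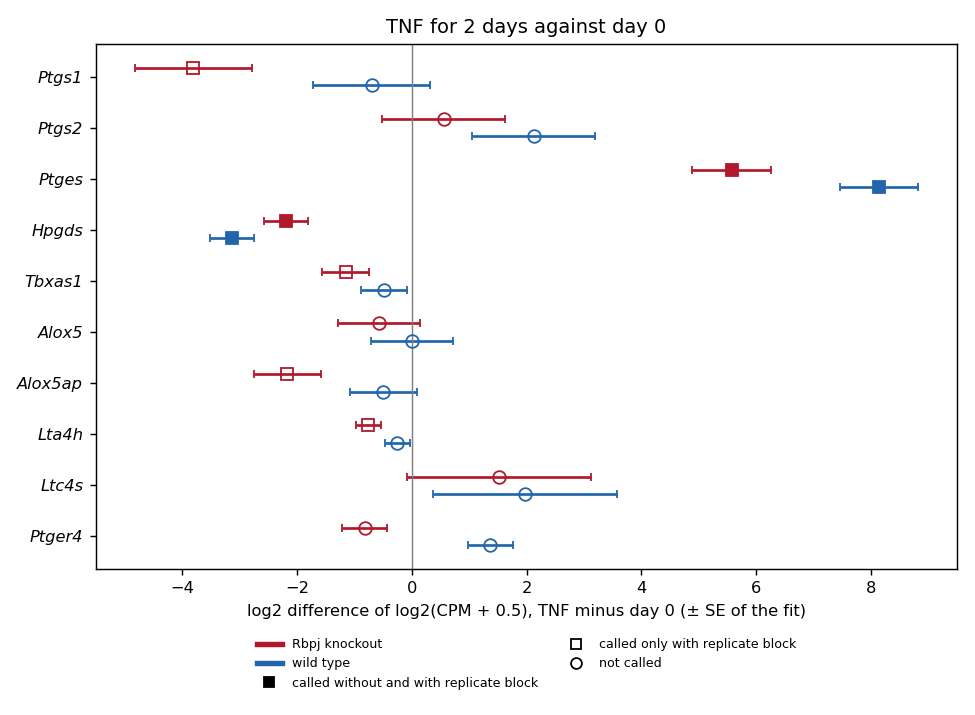
Log2 difference (log2(CPM + 0.5), TNF minus day 0) of each gene with the SE of the fit without the block, for the Rbpj knockout above wild type. Filled squares mark Ptges and Hpgds, called in both genotypes without and with the block, and open squares mark Ptgs1, Tbxas1, Alox5ap and Lta4h, called in the knockout with the block.

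Between the genotypes after TNF, Ptges, Alox5ap and Ptger4 were lower in the knockout by the fit with the block, and no member was called without it. The 3 lower members of 10 compare with 3.75% of all genes called lower with the block (9.28% in either direction), while 0.0082% of genes were called in either direction without it. Of the 10 members, 5 had an unadjusted p under 0.05 in limma without the block, against 11.3% of all genes. Among the members edgeR called 0 without and 0 with the block, and DESeq2 called 3. Of all 12194 genes edgeR called 0 without and 811 with the block, and DESeq2 called 593. The difference was -2.68 ± 0.68 for Ptges (limma adjusted p = 0.210 unblocked and 0.0383 blocked), -1.85 ± 0.59 for Alox5ap (0.287 unblocked and 0.0494 blocked) and -1.48 ± 0.39 for Ptger4 (0.221 unblocked and 0.0468 blocked). These blocked calls stood near the threshold. For Ptges and Alox5ap each was lost without any library other than knockout TNF replicate 1 (limma adjusted p 0.0528 to 0.267 and 0.0614 to 0.284), with log2 differences of -2.96 to -1.58 and -1.86 to -1.05 in those fits. That of Ptger4 was lost without any library other than knockout day 0 replicate 1 or 2 (limma adjusted p 0.0533 to 0.221). Hpgds had a log2 difference of 1.03 ± 0.38 in the other direction, which did not pass (limma adjusted p = 0.383 unblocked and 0.0809 blocked). Libraries of the 2 genotypes did not overlap in 5 of 10 members, against 34.9% of all genes. In 9 of 10 members the difference was negative, with a median of -0.54, against 0.02 over all genes. In the same comparison 9 of 12 macrophage markers were negative (median -0.84, 0 called unblocked and 3 lower with the block) and 12 of 12 osteoclast markers were positive (median 3.34, 0 called unblocked and 10 higher with the block), and their part in the members' differences was not tested. Within the knockout TNF pair, replicate 2 had more osteoclast marker RNA than replicate 1, less mRNA of 7 members (Ptges, Ptgs1, Tbxas1, Alox5, Alox5ap, Lta4h and Ltc4s), more of Ptgs2 and Hpgds, and nearly the same of Ptger4.

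At day 0 no member was called between knockout and wild type by limma without or with the block, by edgeR or by DESeq2, and 1 member, Ptgs1, had an unadjusted p under 0.05, against 1.34% of all genes. Over all genes the share called by limma was 0% without the block and 0.0082% with it. Genes called by edgeR were 0 without the block and 1 with it, and DESeq2 called 24. Ptgs1, Ptgs2 and Ptger4 were higher in both knockout libraries than in either wild-type library, and Ptges, Alox5, Alox5ap and Lta4h were lower, while 18.5% of all genes did not overlap between these groups. Ptgs2 had a log2 difference of 1.21 ± 1.07 and Ptger4 one of 0.71 ± 0.39 (limma adjusted p = 1.0 for each). For Hpgds the 95% interval ran from -0.84 to 1.01 and for Lta4h from -0.58 to 0.47.

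**Figure D4:**
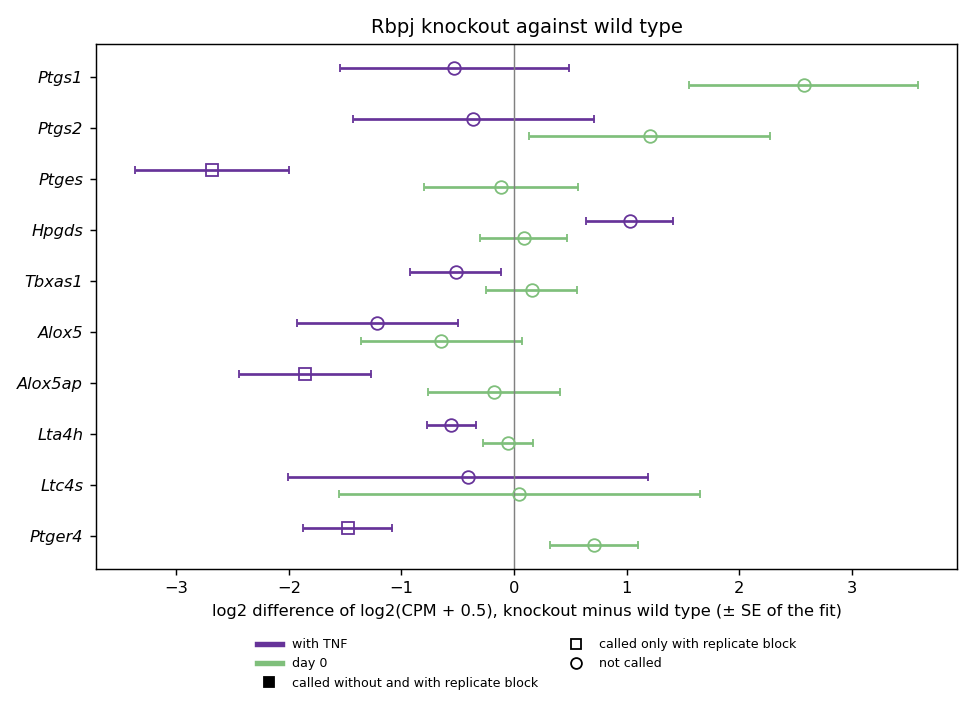
Log2 difference (log2(CPM + 0.5), knockout minus wild type) of each gene with the SE of the fit without the block, with TNF above day 0. Open squares mark Ptges, Alox5ap and Ptger4 with TNF, which were called only with the block at -2.68, -1.85 and -1.48, and all other points are open circles, not called.

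Whether the TNF response itself differed with Rbpj loss was asked by the difference of the 2 responses. No member was called by limma without or with the block or by edgeR. Over all genes limma called 0% without the block and 0% with it, and edgeR called 0 genes in each fit. DESeq2 called 1 member (Ptger4) and 79 of all 12194 genes. In limma without the block 2 members (Ptges and Ptger4) had an unadjusted p under 0.05, against 5.65% of all genes. The difference was -2.19 ± 0.55 for Ptger4 (95% interval -3.52 to -0.86, limma adjusted p = 0.784 unblocked and 0.120 blocked), -2.57 ± 0.97 for Ptges (interval -4.88 to -0.26, limma adjusted p = 0.847 unblocked and 0.174 blocked) and -3.10 ± 1.44 for Ptgs1 (interval -6.55 to 0.35). In 9 of 10 members, all but Hpgds, it was negative, with a median of -1.12, against 0.01 over all genes. Other lists had negative medians too, at -1.27 for the other leukotriene and lipoxygenase genes, -0.85 for the other receptors and -0.89 for the macrophage markers (10 of 12 negative), while the other prostanoid enzymes had 0.20 and the osteoclast markers 2.87.

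Ordered by level per kilobase of exon, Alox5ap was the most abundant member in each group. It averaged 89.9 ± 73.2 CPM per kb in the knockout with TNF, 333 ± 11.6 in the knockout at day 0, 274 ± 86.7 in wild type with TNF and 377 ± 13.5 in wild type at day 0 (SD, n = 2). In the knockout with TNF, Ptges came next at 39.1 ± 36.9 CPM per kb. It was below Alox5ap within each library, at 65.2 against 142 in replicate 1 and 13.0 against 38.1 in replicate 2. In wild type with TNF, Ptges came next too, at 189 ± 21.4 CPM per kb. At day 0 Hpgds came next, at 44.2 ± 14.9 CPM per kb in the knockout and 40.8 ± 8.18 in wild type. Ptgs1 stood at 36.7 ± 13.7 in the knockout, below Hpgds within each library (27.0 against 33.6 and 46.4 against 54.7). In wild type Ptgs1 stood at 6.94 ± 5.36. Ptges was the least abundant at day 0 in the knockout (0.487 ± 0.0179 CPM per kb).

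For the counts in the 5 other lists that follow, the shares of all genes called with TNF were 5.1% unblocked and 25.9% blocked in the knockout, and 1.18% and 10.3% in wild type. An unadjusted p under 0.05 was reached by 19.5% of all genes in the knockout and 12.1% in wild type. Among enzymes that release arachidonic acid and return it to phospholipids, Acsl1 and Daglb changed with TNF in both genotypes. Of 24 such genes, 20 were tested, and with TNF 2 rose and 1 fell in the knockout (4 and 2 with the block) and 1 rose and 1 fell in wild type (4 and 2 in the blocked fit). The blocked count in the knockout, 6 of 20, was near the share of all genes. The list had a median log2 difference of 0.12 in the knockout and 0.28 in wild type. Acsl1, an acyl-CoA synthetase, rose to 531 ± 105 CPM in the knockout with TNF, against 80.1 ± 30.3 CPM at day 0, and to 1561 ± 1198 CPM in wild type with TNF, against 78.8 ± 6.52 CPM at day 0 (limma adjusted p = 0.0482 and 0.0376). Daglb, a diacylglycerol lipase, fell to 30.9 ± 1.38 CPM in the knockout with TNF, against 122 ± 11.2 CPM at day 0, and to 35.2 ± 1.86 CPM in wild type with TNF, against 112 ± 14.2 CPM at day 0 (limma adjusted p = 0.00909 and 0.0334). Lpcat1, a lysophospholipid acyltransferase, rose in the knockout to 135 ± 4.29 CPM with TNF, against 31.9 ± 9.11 CPM at day 0 (limma adjusted p = 0.0331), and was higher in the knockout than in wild type with TNF only with the block (log2 difference 1.91, limma adjusted p = 0.176 unblocked and 0.0180 blocked). Pla2g7, a phospholipase that degrades platelet-activating factor, and Lpcat2, an acyltransferase that makes it, were higher with TNF in wild type only with the block (log2 differences 3.32 and 2.42, limma adjusted p = 0.323 and 0.0881 unblocked, 0.00235 and 0.0256 blocked).

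Among the other prostanoid enzymes, 8 of 11 in the table were tested, and 0 were called with TNF without the block in either genotype (3 in each had an unadjusted p under 0.05), while 2 were higher and 1 lower with the block in each. Hpgd, which inactivates prostaglandins, had 0.880 ± 0.0973 CPM in the knockout with TNF, against 17.8 ± 0.939 CPM at day 0, and 0.776 ± 0.462 CPM in wild type with TNF, against 47.4 ± 52.4 CPM at day 0. It was lower in both by the fit with the block (limma adjusted p = 0.0703 in the knockout and 0.0794 in wild type, and 0.0127 and 0.0133 with the block). The members that were higher with the block were Ptges2, another prostaglandin E synthase (1.59), and the reductase Zadh2 (1.12) in the knockout, and Zadh2 (1.11) and Fam213b (0.90) in wild type, as log2 differences (limma adjusted p = 0.00296, 0.00448, 0.0097 and 0.0254 with the block). Ptgds and Akr1b3 are listed at 0 in every library.

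Of other leukotriene and lipoxygenase genes, 11 of 18 were tested, and with TNF 1 rose and 0 fell in the knockout (2 and 3 with the block) and 0 were called in wild type (1 higher and 1 lower with the block, and 4 at an unadjusted p under 0.05). Ephx2, the soluble epoxide hydrolase that acts on epoxy fatty acids, had 1070 reads over both knockout TNF libraries and 7 over both knockout day 0 libraries (30.7 ± 28.9 and 0.134 ± 0.0635 CPM, limma adjusted p = 0.0154). In wild type it had 1.87 ± 0.588 CPM with TNF and 0.110 ± 0.00138 CPM at day 0, and with TNF it was higher in the knockout than in wild type only with the block (log2 difference 3.33, limma adjusted p = 0.180 unblocked and 0.0278 blocked). Ephx1, the microsomal epoxide hydrolase, was higher with TNF only with the block, by 2.55 in the knockout and 3.07 in wild type on the log2 scale (limma adjusted p = 0.0818 and 0.0980 unblocked, 0.00723 and 0.00822 blocked). Alox12, the platelet lipoxygenase, and Cyp4f18, which is known to inactivate leukotriene B4, were lower with TNF in the knockout only with the block (-2.26 and -2.62, limma adjusted p = 0.439 and 0.412 unblocked, 0.00770 and 0.00199 blocked).

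Receptors other than Ptger4 included 8 tested of 13, with 0 called without the block in either genotype (4 in the knockout and 3 in wild type at an unadjusted p under 0.05). With the block 1 was higher and 4 lower with TNF in the knockout, and 1 was higher and 1 lower in wild type. Fpr2, a receptor for lipoxin and formyl peptides, was higher in both with the block, at 86.4 ± 61.1 CPM in the knockout with TNF, against 10.6 ± 13.1 CPM at day 0, and 315 ± 306 CPM in wild type with TNF, against 3.24 ± 3.71 CPM at day 0 (limma adjusted p = 0.232 and 0.111 unblocked, 0.00234 and 0.00144 blocked). Ptger2, the EP2 receptor gene, had 1.99 ± 1.63 CPM in the knockout with TNF, against 16.1 ± 0.657 CPM in wild type with TNF. Its knockout minus wild type difference was -2.91 ± 0.53, called only with the block (limma adjusted p = 0.158 unblocked and 0.0191 blocked). Cysltr1, a receptor for cysteinyl leukotrienes, had 24.0 ± 1.72 CPM in the knockout with TNF, against 62.8 ± 14.9 CPM in wild type with TNF, and was lower with the block (-1.35, limma adjusted p = 0.217 unblocked and 0.0236 blocked).

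Of 5 transporters 4 were tested. The uptake carrier Slco2b1 fell in both genotypes, to 0.101 ± 0.143 CPM in the knockout with TNF, against 78.8 ± 76.4 CPM at day 0, and to 0.344 ± 0.426 CPM in wild type with TNF, against 96.2 ± 38.3 CPM at day 0 (limma adjusted p = 0.0111 and 0.0232). Abcc1, which exports leukotriene C4, rose in wild type to 1302 ± 263 CPM with TNF, against 404 ± 56.1 CPM at day 0 (limma adjusted p = 0.0472). In the knockout it had 696 ± 47.3 CPM with TNF, against 323 ± 39.4 CPM at day 0, which passed only with the block (limma adjusted p = 0.0698 unblocked and 0.0142 blocked). Between knockout and wild type with TNF, 0 genes of these 5 lists were called without the block. With it 3 were higher and 1 lower in the release and recycling list, 1 and 1 among prostanoid enzymes, 1 and 2 among leukotriene and lipoxygenase genes, 0 and 2 among receptors and 0 and 0 among transporters. Of all 12194 genes, 674 were called higher and 457 lower in this comparison with the block. That is 9.28% in either direction, against 0.0082% without the block.

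**Figure D5:**
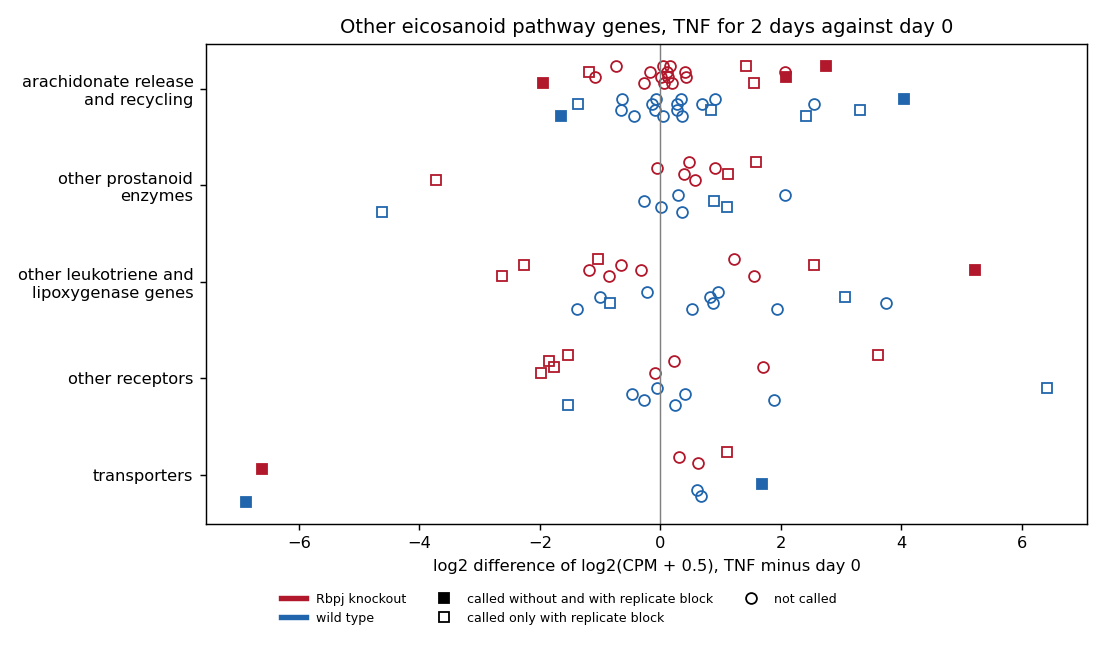
Log2 difference (log2(CPM + 0.5), TNF minus day 0) of each tested gene of the 5 other lists, with the Rbpj knockout above wild type in each list. Filled squares were called without and with the block, open squares only with it, and Slco2b1 lies farthest to the left in both genotypes, at -6.61 in the knockout and -6.88 in wild type.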

How the data were processed

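Poly-A RNA from 8 libraries was sequenced with the NEBNext Ultra II kit, per the labels' protocols. The authors deposited 1 table of CPM per gene, in which a gene's reads are scaled by the library's total over genes, and the submitters' processing notes name fastp, HISAT2, HTSeq, edgeR and the build mm10, with versions and strand setting not given in the sources used here. Whole reads were recovered from the CPM steps (100% of values within 0.01 of a whole number), which gave 9855859 to 35653203 reads per library, and gene positions came from GENCODE on the same build. The design assumed CPM, and it was used.

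Values were tested as log2(CPM + 0.5) with limma 3.58.1 in R 4.3.3 (trended, moderated, 2-sided) on the 12194 genes that reached 1 CPM in 2 or more libraries. All 8 libraries shared one spread, and p-values were Benjamini-Hochberg adjusted over all tested genes. With 2 libraries a group, a fold is imprecise, and it understates the change of low genes. The series states 2 independent experiments, and differences between replicates 1 and 2 correlated across genes in each of 6 pairs of groups (r 0.577 to 0.805), so the replicate number was taken as a pairing. edgeR 4.0.16 and DESeq2 1.42.0 served as alternatives on the recovered reads, beside other pseudocounts, filters, scalings and left-out libraries. In all 4 groups replicates 1 and 2 lay farther apart than counting error gives, so none was counted as a repeat deposit. The tests were tried on simulated data.

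The members and lists were chosen with earlier results of these data known. All 10 members are named. Of each other list, genes called unblocked or blocked were eligible, up to 4 a list and comparison by size, and a few of these are described. Likeness of pattern was ranked for the 3 members with the widest range of group means.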

Additional observations from a re-analysis of the deposited data

Results flagged for a closer look

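Ptger4, the EP4 receptor gene, stood out because its response to TNF ran in opposite directions in the 2 genotypes. Both knockout TNF libraries (9.13 and 9.23 CPM) were below both knockout day 0 libraries (12.4 and 22.1 CPM), whereas both wild-type TNF libraries (29.6 and 23.7 CPM) were above both wild-type day 0 libraries (12.2 and 8.05 CPM). The difference of the 2 responses was -2.19 ± 0.55 on the log2 scale. Tested as an interaction, it did not pass in limma (adjusted p = 0.784 unblocked and 0.120 blocked), and DESeq2 called it (adjusted p = 0.0451). An antisense pseudogene, Gm15937, has an exon that shares up to 872 bases with a Ptger4 exon. The protein-coding gene Ttc33, also on the opposite strand, has one that shares up to 82. The part of these genes was not tested.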

How the results depend on the processing

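The number of the 10 members called depended on the test. With the replicate block it was 6 for TNF against day 0 in the knockout and 3 for knockout against wild type with TNF, against 2 and 0 unblocked, and edgeR with the block gave 6 and 0. edgeR without it gave 1 in the knockout and 1 in wild type for TNF against day 0, since Hpgds missed the threshold in both. DESeq2 gave 5 and 4 (in wild type Ptgs2 and Ptger4 beside Ptges and Hpgds), and it gave 3 for knockout against wild type with TNF and 1 for the difference of responses. Fitting only the libraries of a contrast left 0 in the knockout and 1 in wild type. Leaving out 1 library, with or without the block, gave 0 to 6 in the knockout and 0 to 4 in wild type for TNF, 0 to 2 for knockout against wild type with TNF and 0 to 2 for the difference of responses. The ranges over left-out libraries pool unblocked and blocked fits, so they do not separate the effect of a library from that of the block. The share of all genes called in those fits is not given, so these ranges have no background to be set against. The cause of the moves in the number of members called was not tested. Over all genes, TNF against day 0 called 622 in the knockout and 144 in wild type unblocked, 3162 and 1250 blocked, 497 and 60 with edgeR, 3074 and 1163 with edgeR blocked, 1701 and 874 with DESeq2, 573 and 78 without the filter and 71 and 28 from the contrast's libraries alone. Knockout against wild type with TNF called 1, and 1131 blocked, 0 with edgeR, 811 with edgeR blocked, 593 with DESeq2 and 13 without the filter. DESeq2 also called 79 for the difference of responses and 24 between genotypes at day 0, where limma called 0 and 0 unblocked, and 0 and 1 blocked.

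Direction changed for values that limma called in neither fit of all 8 libraries. Of these, Ltc4s with TNF in wild type passed in 1 fit, with the block and without wild-type TNF replicate 1 (3.07, adjusted p = 0.0461). Alox5 with TNF in wild type was 0.0105 on log2(CPM + 1), 0.10 with TMM factors, 0.10 with median-ratio factors, 0.12 after quantile normalization, 0.35 in edgeR, 0.13 in edgeR with the block and 0.36 in DESeq2. The Ltc4s difference of responses was 0.0554 in edgeR and 0.0799 in DESeq2, and its day 0 genotype difference was -0.00199 on log2(CPM + 1), -0.24 in edgeR, -0.0858 in edgeR with the block and -0.25 in DESeq2. Leaving out 1 library turned 18 member values, with these ranges on the log2 scale. For TNF in wild type they ran from -1.01 to 1.003 for Alox5, -0.0029 to 3.94 for Ltc4s and -1.93 to 0.52 for Ptgs1. In the knockout they ran from -0.15 to 3.18 for Ltc4s and -0.19 to 1.30 for Ptgs2. For the difference of responses they ran from -1.57 to 0.44 for Alox5, -2.43 to 1.52 for Ltc4s and -3.37 to 0.24 for Ptgs2. For knockout against wild type with TNF they ran from -1.52 to 0.71 for Ltc4s, -1.76 to 0.69 for Ptgs1 and -2.16 to 1.44 for Ptgs2. At day 0 they ran from -1.30 to 0.0047 for Alox5, -0.58 to 0.22 for Alox5ap, -0.27 to 0.44 for Hpgds, -0.13 to 0.0218 for Lta4h, -1.92 to 2.02 for Ltc4s, -0.55 to 0.32 for Ptges and -0.22 to 0.53 for Tbxas1. TMM and median-ratio factors moved the median of all genes for TNF in wild type by 0.10 and 0.11. Low counts limit the precision of Ptges at day 0, with 42 to 58 reads a library, and of Slco2b1 with TNF, with 2 reads over both knockout libraries.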

Other observations

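Ranked by the root mean square difference of centred log2 values over the 8 libraries, Irg1 (0.773), Cxcl3 (1.11) and Clec4e (1.22) had the pattern most like that of Ptges. Irg1, which makes itaconate, averaged 390.0 CPM in the knockout with TNF, against 6.82 CPM at day 0, and 1213 CPM in wild type with TNF, against 4.13 CPM at day 0. The chemokine gene Cxcl3 averaged 87.6 CPM in the knockout with TNF, against 0.689 CPM at day 0, and 118 CPM in wild type with TNF, against 0.426 CPM at day 0. Nearest to Hpgds were Abcg3 (0.406), Pkib (0.441) and Slc46a3 (0.464), and nearest to Ptgs1 were Plxdc2 (0.550), Gpr35 (0.560) and Ccnd2 (0.650). The cyclin gene Ccnd2 averaged 5.86 CPM in the knockout with TNF, against 75.8 CPM at day 0, and 6.56 CPM in wild type with TNF, against 15.9 CPM at day 0.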
